A study of Rattus norvegicus with 6 samples.

Results

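In INS-1 cells, 253 of 220490 merged ATAC-seq peaks were open in every library and gained accessibility with forskolin (FSK) in both genotypes. With Exendin-4 (Ex-4) they gained little or none in either genotype. They were chosen by their measured values. A peak qualified if it lay outside the mitochondrial chromosome, was called in all 6 libraries, had a mean of at least 1 FPKM, rose by at least 1 on the log2(FPKM + 0.5) scale with FSK in WT and in Med14 S983A cells, and rose by less than 0.3 with Ex-4 in both. A step of 1 is a 2-fold change and 0.3 is a 1.23-fold change, both before the pseudocount of 0.5 is taken into account. FPKM scale the fragments of a peak by its length and by the fragments in the library's peaks, so they are levels per length. Only reads inside a library's own peaks were counted, over the length of the merged peak. A difference between libraries can therefore also follow from how wide each library's peak was called, which was not tested.

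INS-1 cells come from a rat insulinoma and serve as a model of the beta cell. Med14 S983A cells carry a CRISPR knock-in that replaces a serine of Med14, the scaffold subunit of Mediator and a substrate of protein kinase A (PKA), with alanine, and were grown from sorted single cells. Cells of each genotype were placed in serum-free medium and left untreated (CON) or treated for 1 h, with Ex-4 at 10 nM or FSK at 10 µM, and 50000 nuclei per library were tagmented. The paper describes independently generated mutant lines, and it is not stated which of them gave the 3 mutant libraries, so genotype and line cannot be told apart. With a single library per condition there is no replicate error, and no test between conditions was made because the FSK and Ex-4 changes of both genotypes chose the peaks and the genotype difference has no error term within a treatment. All differences below are descriptions of these 6 libraries.

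FSK and Ex-4 enter the same pathway at different points. FSK activates adenylate cyclase directly, whereas Ex-4 is a stable GLP-1 analog that acts through the GLP-1 receptor, a G protein-coupled receptor of beta cells. Both raise cAMP, which releases the catalytic subunit of PKA to phosphorylate CREB and other substrates. In ATAC-seq the Tn5 transposase cuts where DNA is not wrapped in nucleosomes, so the read density over a peak follows the accessibility of a promoter or enhancer. A peak called before any stimulus marks a region that was already accessible to some degree, as opposed to a site opened from closed chromatin. Mediator links factors bound at such regions to RNA polymerase II.

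The libraries held between 134300000 and 251200000 reads in peaks, recovered from the steps of the FPKM values, and WT FSK was the deepest. WT libraries held 151500000 (CON), 158900000 (Ex-4) and 251200000 (FSK), mutant libraries 134300000, 147100000 and 163000000. A member was covered by a median of 252 reads in WT CON and 194 in Med14 S983A CON, with 38 as the fewest. Counting alone therefore set the Ex-4 change of a typical member to within ±0.26 in WT and ±0.28 in Med14 S983A (median over members of the distance from the change to a bound of the exact 95% interval, log2). These intervals are of plain read ratios, without the pseudocount, and cover counting error only.

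The members were a small fraction of the peaks raised by FSK. Of the 86465 peaks called in all 6 libraries that passed the mean of 1 FPKM, 5139 (5.94%) rose at least 2-fold with FSK in WT, 3942 (4.56%) in Med14 S983A and 3140 (3.63%) in both. An Ex-4 change below 0.3 in both genotypes was the rule rather than the exception, at 85.0% of those 86465 peaks. The whole rule was met by 253 peaks, or 0.293% of the peaks tested and 8.06% of the 3140. No further peak met it when the mean filter was dropped. Of the other FSK-raised peaks, 1891 (60.2%) had an Ex-4 change of at least 0.3 in both genotypes and serve as the comparison class below, called the peaks raised by both stimuli. Another 856 (27.3%) were below 0.3 in WT only and 140 (4.46%) in Med14 S983A only. FSK and Ex-4 changes of a genotype share its CON library, so they are not independent of each other.

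**Figure D1:**
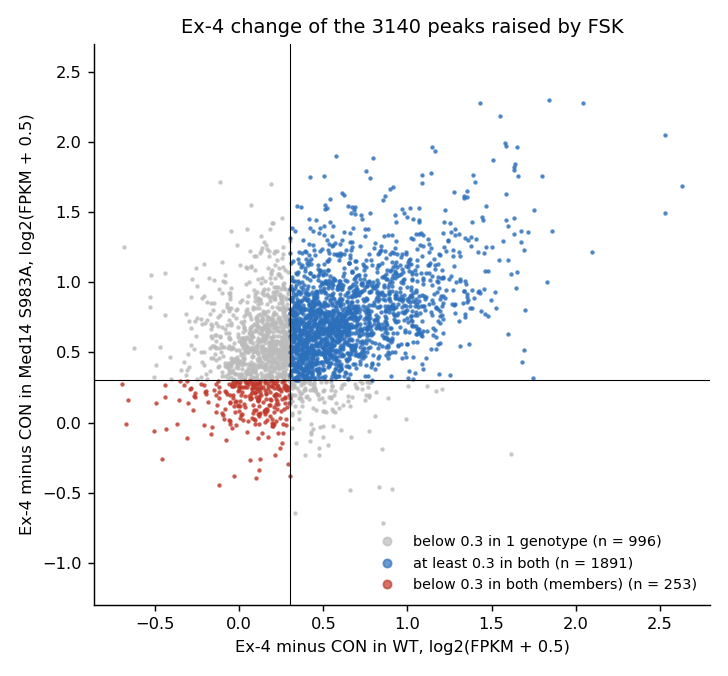
Each point is 1 of the 3140 peaks raised at least 2-fold by FSK in both genotypes, plotted by its Ex-4 minus CON difference on the log2(FPKM + 0.5) scale in WT (horizontal axis) and in Med14 S983A (vertical axis). Lines mark 0.3. The 253 members fill the lower left corner of a continuous cloud, and most FSK-raised peaks lie above 0.3 on both axes.

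The Ex-4 limit cut through a continuous distribution. Among the 3140 FSK-raised peaks, the Ex-4 change in WT and that in Med14 S983A, which have no library in common, were related with r = 0.47 (rho = 0.45, n = 3140 peaks). Fewer peaks fell below the limit in Med14 S983A (393, 12.5%) than in WT (1109, 35.3%), and 64.4% of the former and 22.8% of the latter were members. The limit in Med14 S983A therefore removed more peaks than the limit in WT. Peaks that failed a single limit numbered 163 for FSK in WT, 450 for FSK in Med14 S983A, 140 for Ex-4 in WT and 856 for Ex-4 in Med14 S983A.

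The values on either side of each limit were nearly the same. For FSK in WT, the 3 members just inside rose by 1.00 to 1.02 and the 3 peaks just outside by 0.988 to 0.991 on the log2 scale. For FSK in Med14 S983A, members started at 1.0012 and the nearest excluded peaks rose by 0.9992 to 0.9999. The 3 members closest to the Ex-4 limit in WT had changes of 0.2987 to 0.2999, with the nearest excluded peaks at 0.3003 to 0.3046. In Med14 S983A the corresponding Ex-4 changes were 0.2981 to 0.2996 inside and 0.3037 to 0.3055 outside. The peak chr20:6240030-6240356, for example, was left out with 7.37, 9.19 and 19.1 FPKM in WT CON, Ex-4 and FSK, whereas chr7:119208462-119209401 was kept with 5.94, 7.43 and 19.0 FPKM.

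Before stimulation the members were open at a modest level. Their FPKM in WT CON ranged from 0.359 to 25.4 with a median of 3.22, against a median of 8.78 over all tested peaks and 3.85 for the peaks raised by both stimuli. In Med14 S983A CON the range was 0.263 to 26.0 with a median of 2.94, against 8.05 and 3.08. The members were thus accessible in CON at lower levels than most tested peaks, as were the peaks raised by both stimuli. The rule measured the FSK rise of both classes against CON, so the CON level is not independent of the choice. How far the choice accounts for the lower level was not tested.

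With FSK the members came to lie near the median of all tested peaks. Their median was 9.86 FPKM in WT FSK (range 2.46 to 55.7) and 8.06 in Med14 S983A FSK (range 1.27 to 78.5), where all tested peaks had medians of 8.43 and 7.43. With Ex-4 the median of the members was 3.32 FPKM in WT and 3.27 in Med14 S983A. The Ex-4 distribution lay almost on that of CON in both genotypes. In the peaks raised by both stimuli, Ex-4 gave medians of 6.33 and 5.63 FPKM and FSK gave 16.3 and 11.1 FPKM, so that their Ex-4 libraries lay between CON and FSK.

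**Figure D2:**
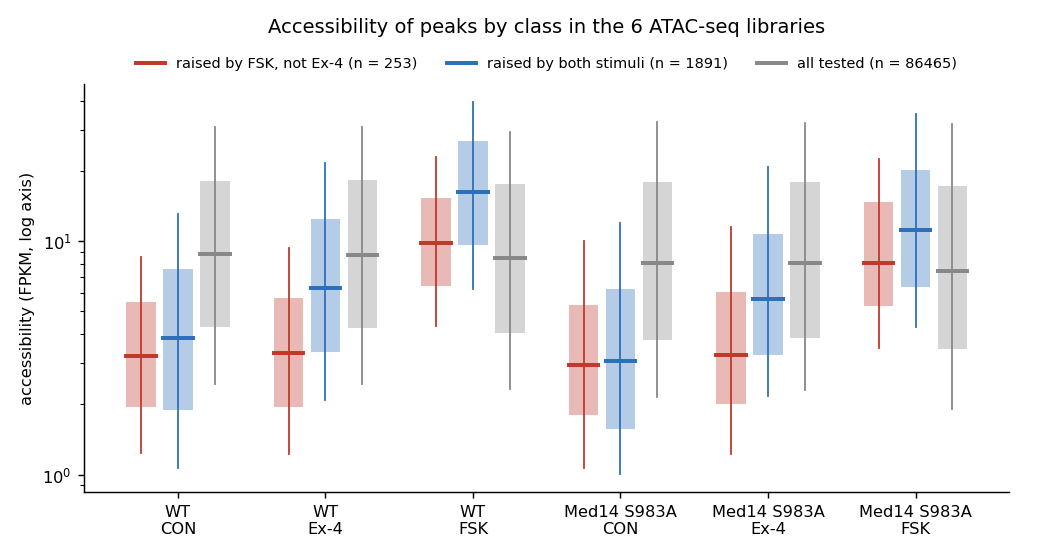
Accessibility in FPKM (log axis) in the 6 libraries for the 253 members (red), the 1891 peaks raised by both stimuli (blue) and all 86465 tested peaks (grey). Thick lines are medians, boxes span the middle 50% of peaks and thin lines the 10th to the 90th percentile. In WT the median of the members moved from 3.22 (CON) to 3.32 (Ex-4) and 9.86 (FSK).

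Because the rule used these differences, their sizes are a description of the class. The median FSK change of the members was 1.37 in WT and 1.24 in Med14 S983A on the log2 scale, or 2.92-fold (range 2.05 to 10.9) and 2.66-fold (range 2.04 to 6.91) as plain FPKM ratios. The median over all tested peaks fell by 0.13 with FSK in WT and by 0.12 in Med14 S983A, so against the typical peak the rise was larger by these amounts. The peaks raised by both stimuli had FSK changes of 1.77 and 1.53. A rise of at least 4-fold with FSK in both genotypes was found at 6 members (2.37%). It was found at 15.8% of the peaks raised by both stimuli and 0.423% of all tested peaks. Conversely, 39 members (15.4%) rose by less than 1.2 in both genotypes, as opposed to 5.08% of the peaks raised by both stimuli. Of the 86465 tested peaks, 82162 had an FSK change below 1.2 in both genotypes. Both classes were chosen for a 2-fold rise with FSK, so the values over all tested peaks are not a like comparison. Across members, the FSK change in WT was related to that in Med14 S983A with r = 0.55 (rho = 0.42, n = 253 peaks chosen by both values).

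Ex-4 changes of the members were small but not centred on 0. The median was 0.09 in WT and 0.18 in Med14 S983A on the log2 scale (1.08-fold and 1.15-fold as plain ratios), where the median over all tested peaks fell by 0.02 in each genotype. A negative Ex-4 change was found at 80 members (31.6%) in WT, 39 (15.4%) in Med14 S983A and 15 (5.93%) in both, against 55.0%, 55.2% and 37.8% of all tested peaks. Values crowded under the limit, with 58 members (22.9%) between 0.2 and 0.3 in WT and 108 (42.7%) in Med14 S983A, against 5.22% and 5.84% of all tested peaks. Within the class the Ex-4 changes of the genotypes gave r = 0.003 (rho = -0.03, n = 253), with both values cut off above 0.3 by the rule. The peaks raised by both stimuli, cut off below 0.3, gave r = 0.47 (rho = 0.40, n = 1891). How far the cut accounts for the missing relation among members was not tested.

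The depth allowed a closer look at how flat single peaks were under Ex-4. The counting interval of the Ex-4 change included no change for 183 members (72.3%) in WT, 160 (63.2%) in Med14 S983A and 128 (50.6%) in both, against 60.4%, 57.4% and 39.7% of all tested peaks. It lay above no change for 50 members (19.8%) in WT, 88 (34.8%) in Med14 S983A and 29 (11.5%) in both, against 18.3%, 19.8% and 10.4% of all tested peaks. The shares in WT and in both genotypes were near those of all tested peaks, but such shares depend on read number. Members held a median of 252 reads in WT CON and 194 in Med14 S983A CON, against 724 and 564 for all tested peaks. Their intervals were therefore wider, and the shares are not a like comparison. A small Ex-4 gain beyond counting error is not excluded by the rule. The interval lay below no change for 20 members (7.91%) in WT and 5 (1.98%) in Med14 S983A, against 21.4% and 22.7% of all tested peaks. The limits of the rule nearly fix that the Ex-4 interval lies wholly below the FSK interval, as it did for all 253 members in WT and for 251 (99.2%) in Med14 S983A, against 98.7% and 86.9% of the peaks raised by both stimuli. A strict reading, with the upper bound for Ex-4 below 0.3 and the lower bound for FSK at or above 1 in both genotypes, held for 22 members (8.7%), against 0.0254% of all tested peaks. The Ex-4 part held for 30 members (11.9%), against 62.5% of all tested peaks, and the FSK part for 183 (72.3%), against 3.1%. For most members, counting alone thus did not place the Ex-4 change below 0.3 in both genotypes. These bounds are of plain ratios, whereas the limits of the rule include the pseudocount, so the 2 scales differ at peaks of low FPKM.

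The 10 members with the largest mean FSK change over both genotypes (regions 1 to 10) separated the treatments most clearly. Region 1, chr6:26526508-26527044, had the largest gain and a low level in CON. Its FPKM in CON, Ex-4 and FSK were 0.628, 0.705 and 6.84 in WT and 0.833, 0.824 and 5.76 in Med14 S983A. These rest on 51, 60 and 921 reads in WT and 60, 65 and 503 in Med14 S983A, so its FSK gain of 10.9-fold in WT had a counting interval of 3.04 to 3.88 on the log2 scale and its 6.91-fold gain in Med14 S983A one of 2.40 to 3.20. Both FSK libraries stood far above the other 4, while the Ex-4 intervals, -0.40 to 0.73 in WT and -0.54 to 0.51 in Med14 S983A, included no change.

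Region 2, chr10:90145868-90146580, was better covered. It held 3.08, 2.62 and 17.1 FPKM in WT CON, Ex-4 and FSK and 3.09, 3.63 and 19.2 FPKM in Med14 S983A. The CON levels were nearly identical between genotypes, and Ex-4 lay slightly below CON in WT and slightly above it in the mutant.

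Region 3, chr2:227339413-227339651, is a narrow peak of 238 bases with 2.44, 2.78 and 15.4 FPKM in WT and 2.47, 2.60 and 12.7 FPKM in Med14 S983A. Region 4, chr10:67890386-67891010, had the highest FSK level in WT of the 10, with 3.48, 3.67 and 20.9 FPKM in WT and 2.43, 2.89 and 12.0 FPKM in Med14 S983A. In both, CON and Ex-4 lay close together and FSK stood apart.

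Regions 5 and 6 had nearly equal CON levels in the genotypes. Region 5, chr7:60024059-60024439, rose from 1.56 (CON) and 1.76 (Ex-4) to 9.37 FPKM (FSK) in WT and from 1.55 and 1.84 to 7.85 in Med14 S983A. Region 6, chr16:82064229-82064792, rose from 2.49 and 2.86 to 12.4 FPKM in WT and from 2.37 and 2.88 to 11.5 in Med14 S983A.

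Regions 7 to 10 had the smallest mean gains of the 10. Region 7, chr13:69439036-69439491, held 2.15, 2.30 and 12.4 FPKM in WT and 2.99, 3.73 and 11.9 in Med14 S983A. Region 8, chrX:63802025-63802966, held 2.62, 2.86 and 10.9 FPKM in WT and 2.64, 3.30 and 13.8 in Med14 S983A. Together with region 2 it was the member of the 10 whose FSK change was larger in the mutant. Region 9, chr17:66313785-66314157, held 1.85, 2.17 and 10.3 FPKM in WT and 1.86, 2.25 and 7.75 in Med14 S983A. Region 10, chr5:28426955-28427395, held 0.915, 1.22 and 5.98 FPKM in WT and 1.96, 2.39 and 7.94 in Med14 S983A. In CON, region 10 differed most between the genotypes among the 10.

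**Figure D3:**
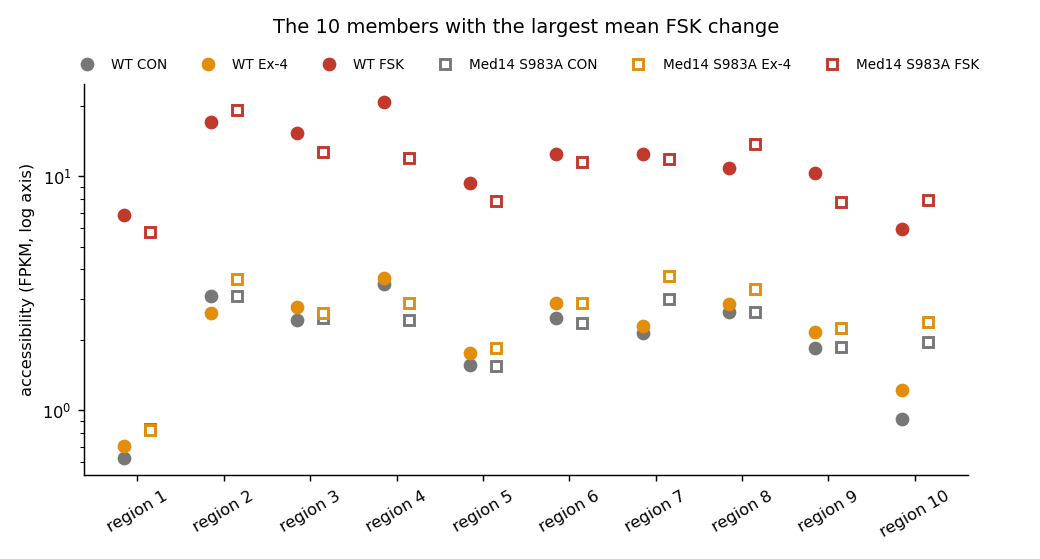
FPKM (log axis) of regions 1 to 10 in each of the 6 libraries, with filled circles for WT and open squares for Med14 S983A, grey for CON, orange for Ex-4 and red for FSK. In each region both FSK values lie above all 4 CON and Ex-4 values, and the CON and Ex-4 values of a genotype lie close together.

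The 5 most accessible members rose by between 2.04-fold and 2.56-fold with FSK. The highest mean FPKM belonged to chr19:41578226-41579138, with 25.4, 31.2 and 55.7 FPKM in WT CON, Ex-4 and FSK and 26.0, 31.1 and 58.3 in Med14 S983A. It was followed by chr2:157452771-157453923, with 21.2, 23.6 and 52.2 FPKM in WT and 26.0, 27.7 and 66.5 in the mutant. The next, chr5:72289811-72290609, had 19.7, 23.1 and 40.3 FPKM in WT and 24.6, 30.3 and 51.9 in Med14 S983A, and was also among the members closest to the FSK limit in WT. All 3 rose by 2.05-fold to 2.56-fold with FSK and by 1.07-fold to 1.23-fold with Ex-4. The 2 remaining peaks of the top 5, chr10:85987611-85988296 and chr10:109694342-109694979, had FSK changes of 2.25-fold each in WT and 2.24-fold and 2.04-fold in Med14 S983A. At all 5 the counting interval of the Ex-4 change lay above no change in both genotypes. Its lower bounds ran from 0.088 to 0.23 in WT and from 0.033 to 0.23 in Med14 S983A (log2), so these peaks rose slightly with Ex-4 beyond counting error.

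The 5 members with the most negative mean Ex-4 change lay clearly below CON in at least 1 genotype. At chr11:36180519-36181279 the FPKM were 1.28, 0.795 and 3.73 in WT CON, Ex-4 and FSK and 0.793, 0.581 and 2.503 in Med14 S983A, so Ex-4 was the lowest of the 3 in both genotypes. At chr17:12264142-12264590 Ex-4 lay below CON by more than counting error in WT alone, with 10.5, 6.41 and 29.7 FPKM, against 7.63, 7.59 and 22.2 in Med14 S983A. At chr11:82760803-82761350 the gap was wider in the mutant, with 1.06, 0.646 and 3.23 FPKM in Med14 S983A and 0.821, 0.714 and 2.60 in WT. The other two of the 5 most negative, chr3:122808714-122809508 and chr10:14090597-14091387, had Ex-4 ratios of 0.642 and 0.600 in WT and 0.956 and 1.12 in the mutant. The counting interval of the Ex-4 change lay below no change in WT at 4 of these 5 peaks and in Med14 S983A at chr11:82760803-82761350, and no peak of the 5 fell beyond counting error in both genotypes.

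The comparison of genotypes within a treatment was not used by the rule, although it rests on the same libraries. In CON, 15 members (5.93%) stood at least 2-fold higher in the mutant, against 4.9% of all tested peaks, and 22 (8.7%) at least 2-fold lower, against 10.5%. With Ex-4, 27 members (10.7%) were higher, against 4.98%, and 19 (7.51%) lower, against 9.6%. With FSK, 7 (2.77%) were higher, against 4.07%, and 26 (10.3%) lower, against 11.4%. The shares in CON and FSK stood near those of all tested peaks, whereas the share higher with Ex-4 stood above it, as did that of the peaks raised by both stimuli (9.04%). In CON 166 members (65.6%) differed by less than 1.5-fold between genotypes, as opposed to 68.6% of all tested peaks and 53.4% of the peaks raised by both stimuli. Among the latter, 17.7% were at least 2-fold lower in Med14 S983A CON and 18.4% with FSK.

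The median mutant minus WT difference of the members was 0.07 for CON, 0.11 for Ex-4 and -0.11 for FSK, where all tested peaks had 0.05, 0.05 and 0.04. With each library centred on its median, and the members chosen anew on the centred values, the difference in CON became 0.20. Centring moves this difference upward at every tested peak, because the median FPKM in CON was 8.78 in WT and 8.05 in Med14 S983A. The 0.20 is therefore not comparable with the uncentred 0.05 of all tested peaks. Across members the levels of the 2 genotypes were related with r = 0.74 in CON and 0.76 in FSK (log2 scale, n = 253 peaks).

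**Figure D4:**
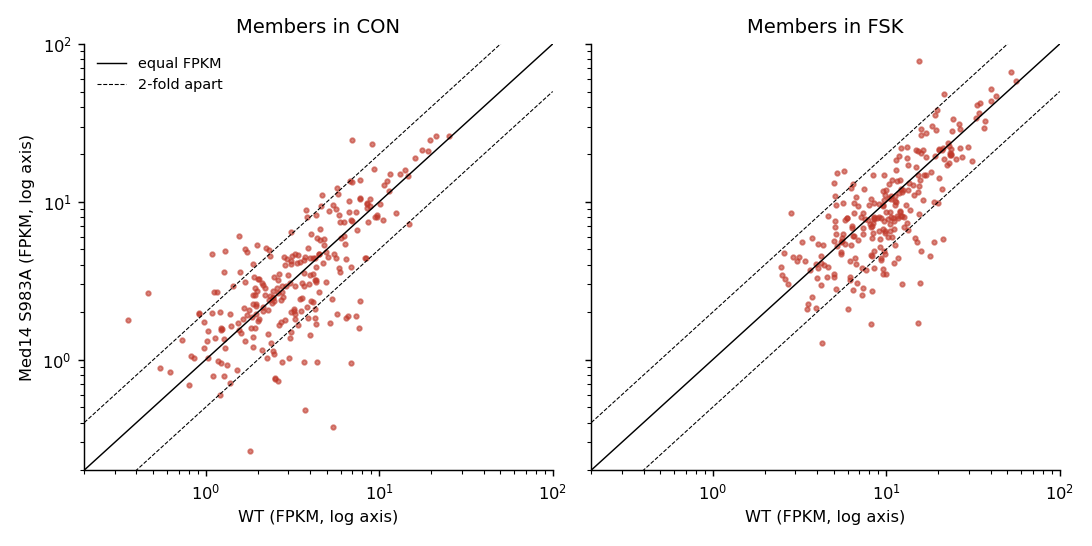
FPKM of each of the 253 members in WT (horizontal, log axis) and Med14 S983A (vertical, log axis), in CON (left) and FSK (right). The solid line marks equal FPKM and dashed lines a 2-fold difference. Most members lie between the dashed lines, with 22 below them and 15 above them in CON on the log2(FPKM + 0.5) scale.

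A few members differed strongly between genotypes in CON. At chr14:70174140-70175233 Med14 S983A held 0.375, 0.473 and 1.71 FPKM in CON, Ex-4 and FSK where WT held 5.42, 5.44 and 15.2. The mutant level with FSK thus stayed below the untreated WT level. At chr3:8102553-8104074 the mutant held 0.95, 1.22 and 3.06 FPKM against 6.86, 7.98 and 15.6 in WT, and at chr3:10535852-10536713 it held 0.484, 0.663 and 1.67 FPKM against 3.72, 3.95 and 8.22. The FSK ratio at these 3 peaks was 2.80, 2.28 and 2.21 in WT and 4.55, 3.22 and 3.46 in the mutant.

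The opposite pattern was most pronounced at chr1:221198994-221199655, which held 24.7, 27.9 and 78.5 FPKM in Med14 S983A CON, Ex-4 and FSK and 6.97, 6.79 and 15.4 in WT. Here the unstimulated mutant exceeded FSK-treated WT cells, and the FSK level was the highest of any member in any library. At chr7:115224334-115225076 the mutant held 2.66, 2.73 and 8.45 FPKM against 0.463, 0.467 and 2.82 in WT, and at chr1:128630229-128630870 it held 4.70, 5.88 and 13.0 against 1.09, 0.786 and 6.48. In all 3 treatments, 7 members (2.77%) stood at least 2-fold above WT in the mutant and 17 (6.72%) at least 2-fold below it, against 2.88% and 7.7% of all tested peaks.

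The FSK gain itself was smaller in Med14 S983A than in WT at 176 members (69.6%), as it was at 72.9% of the peaks raised by both stimuli and 50.2% of all tested peaks. The median mutant minus WT difference of the FSK change was -0.13 for the members, -0.23 for the peaks raised by both stimuli and -0.001 for all tested peaks. An FSK change at least 1.5-fold lower in the mutant was seen at 18 members (7.11%), against 19.7% of the peaks raised by both stimuli and 5.45% of all tested peaks. The reverse was seen at 2 members (0.791%), against 2.54% and 2.56%. The requirement of a 2-fold rise in both genotypes limits how far this difference can go, and WT FSK, the numerator in WT, was the deepest library. The part of depth in this difference was not tested. The Ex-4 change ran the other way, being higher in the mutant at 163 members (64.4%), 66.5% of the peaks raised by both stimuli and 49.1% of all tested peaks.

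Members were somewhat narrower than other peaks and spread over the genome. Their width had a median of 509 bases (range 153 to 1627), against 576 for the peaks raised by both stimuli and 584 for all tested peaks, and 18 (7.11%) were 1000 bases or wider, against 7.4% and 16.4%. The widest was chr1:224924592-224926219, with 7.76, 7.53 and 19.2 FPKM in WT CON, Ex-4 and FSK and 13.7, 13.4 and 35.5 in Med14 S983A. Its Ex-4 level was a little below CON in both genotypes. The next widest, chr2:184001321-184002895 and chrX:71954664-71956228, spanned 1574 and 1564 bases.

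Every one of the 21 chromosomes with tested peaks carried members. Chromosome 1 held the most, 31 (12.3%, against 11.3% of all tested peaks). Chromosome 12 held 13 (5.14%, against 2.93%) and chromosome 18 also 13 (5.14%, against 3.17%), while chromosome 8 held 4 (1.58%, against 4.61%) and chromosome 20 held 2 (0.791%, against 2.57%). With so few peaks per chromosome these shares are given as counts, without a test.

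A close neighbour was found more often around members than around other peaks. The nearest other merged peak was a median of 1110 bases away, against 1761 for the peaks raised by both stimuli and 1824 for all tested peaks, and 48.6% of the members had a peak within 1 kb, against 36.5% and 37.7%. A peak called with FSK in both genotypes and in no other library, a region that passed the caller's threshold only after FSK, lay within 5 kb of 53 members (20.9%), against 12.7% of the peaks raised by both stimuli and 9.87% of all tested peaks. Within 20 kb the shares were 54.9%, 42.7% and 31.4%. There are 15480 such peaks in the table. These shares describe a single peak table and were not tested, and the members were themselves chosen for a gain with FSK. Calls depend on depth, and both FSK libraries were the deepest of their genotype, with 251200000 and 163000000 reads.

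A pair of members, picked after their values were seen, gives examples of such neighbours. The member chr3:163819175-163819819 held 11.6, 10.5 and 26.3 FPKM in WT and 14.96, 15.8 and 31.2 in Med14 S983A. At a distance of 125 bases lay chr3:163818468-163819050, called with FSK only, with 13.1 FPKM in WT FSK and 36.7 in Med14 S983A FSK. The strongly mutant-biased member chr1:221198994-221199655 had such a neighbour 1708 bases away, chr1:221201363-221201521, with 27.5 FPKM in WT FSK and 60.2 in Med14 S983A FSK. Over the 53 members with such a neighbour within 5 kb, the neighbour was a median of 198 bases wide and held a median of 5.28 FPKM in WT FSK and 5.01 in Med14 S983A FSK. In both cases the neighbour was higher in the mutant than in WT with FSK, which held for 22 of the 53 members with such a neighbour.

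The position of members relative to peaks raised by both stimuli depended on the distance. A peak raised by both stimuli lay within 5 kb of 1 member (0.395%), against 3.54% of the peaks of that class themselves and 1.39% of all tested peaks. Within 20 kb the order differed, with 6.72% of the members, 13.7% of that class and 5.23% of all tested peaks, and the median gap was 225955 bases for members and 389890 for all tested peaks. The member within 5 kb was chr17:12264142-12264590, described above for its low Ex-4 level in WT, which lay 1890 bases from chr17:12261579-12262252. The latter held 16.0, 25.1 and 48.2 FPKM in WT CON, Ex-4 and FSK and 13.3, 22.3 and 42.5 in Med14 S983A. In WT, Ex-4 thus raised one peak and lowered the other, while FSK raised both.

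**Figure D5:**
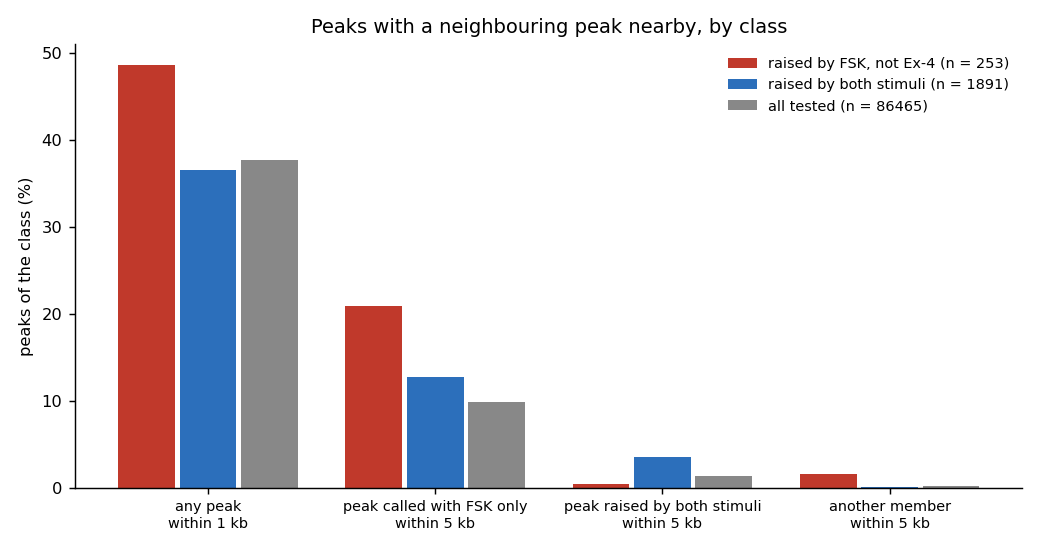
Percentage of the peaks of each class that had, from left to right, any merged peak within 1 kb, a peak called with FSK in both genotypes and in no other library within 5 kb, a peak raised by both stimuli within 5 kb, and another member within 5 kb. Members are red, peaks raised by both stimuli blue and all tested peaks grey. A peak called with FSK only was near 20.9% of the members, 12.7% of the blue class and 9.87% of all tested peaks.

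Members rarely came in groups. Another member lay within 5 kb of 4 members (1.58%) and within 20 kb of 12 (4.74%). Of all tested peaks, 0.242% and 0.961% had a member that close, so the shares, though low, were higher among members. The densest group held 3 members within 17165 bases of chromosome 13. The outer ones were lower in the mutant, with chr13:103210512-103210965 at 7.32, 8.21 and 15.8 FPKM in WT CON, Ex-4 and FSK and 1.89, 2.06 and 4.88 in Med14 S983A, and chr13:103226991-103227677 at 6.47, 6.77 and 15.1 and at 1.85, 2.13 and 5.55. The middle peak, chr13:103221193-103221458, was not lower in the mutant in CON, with 1.92, 1.497 and 9.12 FPKM in WT and 2.84, 3.05 and 8.06 in the mutant.

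Tested peaks beside the members changed little with either stimulus at the median. The 205 tested peaks within 5 kb of a member that are not members had a median FSK change of 0.02 in WT and 0.06 in Med14 S983A on the log2 scale, against -0.14 and -0.13 for all tested non-members, and a median Ex-4 change of -0.01 and 0.01. Within 20 kb, 819 such peaks had median FSK changes of -0.02 and 0.03, so the sign in WT turned with the distance. Of the 205 neighbours within 5 kb, 8 (3.9%) rose at least 2-fold with FSK in both genotypes, against 3.35% of all tested non-members.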

How the data were processed

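ATAC-seq libraries of INS-1 cells were analysed, 1 for each of 2 genotypes and 3 treatments. For these libraries, the authors used Trim Galore for trimming and bwa mem for alignment to rn6. Reads that were mitochondrial, duplicated or of low mapping quality were removed with samtools, and macs2 was run per library. The authors deposited FPKM over the merged peaks, made with HOMER from the reads inside a library's own peaks. A Tn5 shift is described for footprinting, and the sources do not state whether it applies to the FPKM. Values were taken as log2(FPKM + 0.5) with the authors' scaling kept, for peaks called in all 6 libraries with a mean of at least 1 FPKM. The members and lists were chosen with earlier results of these data known. Groups come from the sample titles.

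Read numbers behind the FPKM were derived from their steps after multiplication by peak length, and 6000 low values per library all lay within 0.15 of a whole read. Intervals of ratios are exact 95% intervals (Clopper-Pearson, conditional on both counts). They served only to describe counting error, and the reads entered no test between conditions. Distances are between nearest edges. The regions named are the 10 members with the largest mean FSK change, the 5 with the highest mean FPKM, the 5 with the most negative mean Ex-4 change, 3 on each side of each limit, 3 in each direction for the genotype difference in CON, the 3 widest and the densest group within 100 kb. Neighbouring pairs were named after their values were seen. Alternatives were pseudocounts of 0.1 and 1, other filters, scalings and limits, and a wider neighbourhood. The sequence and gene annotation of rn6 were not used here, so genes, motifs and GC content of the members were not analysed here. The steps were tested on simulated data. Calculations used numpy 2.4.6, scipy 1.17.1 and pandas 2.3.3 under Python 3.11.15, and plots used matplotlib 3.10.9.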

Additional observations from a re-analysis of the deposited data

Results flagged for a closer look

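At 9 members the Ex-4 change had opposite signs in the genotypes, with both counting intervals excluding no change. At 8 of them Ex-4 lay below CON in WT and above it in Med14 S983A, and at 1, chr1:216932230-216932844, the reverse held, with ratios of 1.29 in WT and 0.717 in Med14 S983A. The widest gap was at chr9:52965160-52965797, with an Ex-4 ratio of 0.429 in WT and 1.29 in Med14 S983A. Region 2, chr10:90145868-90146580, was among the 8, with 0.850 and 1.18. Of all tested peaks, 1143 (1.32%) fell in WT and rose in Med14 S983A by the same measure and 892 (1.03%) did the reverse, as opposed to 3.16% and 0.395% of the members. The rule itself kept both Ex-4 changes of a member below 0.3, and members held fewer reads than all tested peaks. These shares are therefore a description and not a like comparison. The difference between genotypes was not tested, since with 1 library per condition it has no error term.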

How the results depend on the processing

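No paired analysis was possible because no value here comes from a test, the changes within both genotypes having chosen the peaks. With 1 library per condition none could be left out. Membership depended on every limit. The class held 281 peaks with a pseudocount of 0.1 (199 of the 253 kept) and 227 with 1 (185 kept), 211 with a mean of at least 3 FPKM, 354 with each library centred on its median (247 kept) and 407 after quantile normalization (245 kept). It held 1311 peaks with an FSK limit of 1.5-fold and 6 with 4-fold, 39 with an Ex-4 limit of 0.1 and 1153 with an Ex-4 limit of 1.5-fold. The median FSK change in WT became 0.90 with the FSK limit of 1.5-fold and 2.36 with 4-fold. In Med14 S983A it became 1.28 with a pseudocount of 0.1, 1.21 with 1, 1.28 after centring, 1.27 after quantile normalization, 0.83 and 2.12 with the FSK limits and 1.27 with the wider Ex-4 limit. The median Ex-4 change in WT reversed to -0.054 with the Ex-4 limit of 0.1 and became 0.24 with that of 1.5-fold. In Med14 S983A it became 0.16 with a pseudocount of 0.1, 0.15 after quantile normalization, 0.014 with the limit of 0.1 and 0.40 with that of 1.5-fold. These shifts under other limits follow from the limits themselves. The genotype difference in CON became 0.20 after centring and reversed to -0.035 with the wider Ex-4 limit. The genotype difference of the FSK change became -0.077 after centring, -0.066 with the FSK limit of 1.5-fold and -0.26 with 4-fold, and stayed negative under all 10 alternatives. The median FSK change of neighbours in WT reversed to -0.025 within 20 kb. Centring subtracts the library medians, so it moves every genotype difference by the offset between them, before members are chosen anew. The FSK minus CON difference of these medians was -0.056 in WT and -0.108 in Med14 S983A (log2 scale). Beyond this offset, the cause of the shifts under other pseudocounts, scalings and distances was not tested. The other 47 comparisons with an alternative were counted as unchanged. They stayed within the 95% order-statistic interval of the median, or within 1.5 times the count. For the neighbours in Med14 S983A the criterion was a shift below 0.1 with the sign kept. The 47 include the comparisons without the mean filter, which left the same 253 peaks and so could not differ. They also include the genotype difference in CON with the FSK limit of 4-fold, which changed sign from 0.0661 to -0.0039. It stayed inside the interval, -0.0105 to 0.1607, whose bounds have opposite signs. Median GC content, motif shares and motifs in the central 200 bases were not run. Depth limits the Ex-4 call of single members, while variation between libraries is unknown.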
